A study of Homo sapiens with 2 samples.

Results

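NOMO1, NOMO2 and NOMO3 are near-identical genes of human chromosome 16 that encode NOMO (Nodal modulator), and their exons were followed in Huh-7 cells, a human hepatocellular carcinoma line, with and without BS008. The members were the exon rows on hg19 in a window around each gene. Their rows ran from 14927643 to 14990013 on the plus strand (NOMO1), from 18511183 to 18573434 on the minus strand (NOMO2) and from 16326389 to 16388667 on the plus strand (NOMO3). These windows held 93 of the 239322 exon rows in the data, 31 in each copy, and none on the other strand. The genes were chosen because the row of NOMO3 exon 30 had stood out in an earlier look at these same libraries, so every value below is a description and no test is given.

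The control library came from Huh-7 cells kept for 24 h in 0.1% DMSO, and the other from Huh-7 cells kept for 24 h with 0.1 mM BS008, an amiloride derivative. Both used cells of passages 15 to 20 and total RNA taken through an mRNA library kit. Each condition has 1 library, so a difference between cultures cannot be told apart from one of treatment. The question was which transcripts BS008 alters in their splicing.

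NOMO is a membrane protein of the endoplasmic reticulum (ER) with a large part in the ER lumen. Together with nicalin (NCLN) and TMEM147 it forms the BOS complex, which sits beside the SEC61 channel on ribosomes that are making proteins with several membrane spans. NOMO and nicalin are also known to restrain Nodal signalling in the zebrafish embryo, and NOMO helps to shape ER sheets. The copies arose by segmental duplication, so a short read from one of them can fit the others.

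The cells carried the RNA of hepatocyte lineage genes. RPKM is reads per length of exon and per library total. For these genes it was taken from counts summed over the internal exons of 1 matched transcript, which need not cover the gene. There were 9 such exons for albumin (ALB), 3 for AFP and 6 for APOH. In RPKM, ALB had a level of 2731 in control and 3363 in BS008. Alpha-fetoprotein (AFP), a fetal liver protein that liver cancers make again, had 1101 and 818, and the plasma protein APOH had 379 and 311. COL1A1, a collagen gene of fibroblasts, had 13 reads in control and 4 in BS008. APOA1, TTR, PTPRC and PECAM1, the other markers listed for this check, could not be identified in the exon rows. The libraries held 55476654 and 53578432 reads on exons, and 3 reads, taken as the smallest detectable number, are 5.41e-06% and 5.60e-06% of them.

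The sequences below show how alike the copies are, since reads are placed by sequence. They are coding exons of 1 transcript of each copy in GENCODE release 29 (GRCh38), read 5′ to 3′. Exons were numbered from the 5′ end of the transcript and matched to the hg19 rows by length and order only. All 29 internal exons had the same length in the transcript and in the rows of each copy. With the introns between them included, the runs of NOMO1 and NOMO3 were each found in 1 place in the data, in the window named for that copy. The full run of NOMO2 was not found in exactly 1 place. The longest NOMO2 run that was had 6 internal exons of a shorter transcript and lay in the NOMO2 window. Over 4246 compared bases, NOMO1 differed from NOMO2 at 20 and from NOMO3 at 19, and NOMO2 differed from NOMO3 at 9. Exons 29 (120 bases) and 30 (93 bases), at which NOMO2 and NOMO3 had the largest log2 ratios with 0.5 CPM added, have 1 sequence in all copies. Their rows lie at chr16:14982953-14983072 and chr16:14988855-14988947 for NOMO1, chr16:18518131-18518250 and chr16:18512249-18512341 for NOMO2, and chr16:16381600-16381719 and chr16:16387509-16387601 for NOMO3.
NOMO1, NOMO2 and NOMO3 exon 29: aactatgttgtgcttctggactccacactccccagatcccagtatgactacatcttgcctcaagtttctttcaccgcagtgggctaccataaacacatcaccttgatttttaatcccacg
NOMO1, NOMO2 and NOMO3 exon 30: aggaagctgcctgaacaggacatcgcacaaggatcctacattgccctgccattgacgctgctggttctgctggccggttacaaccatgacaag

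Exon 28 (102 bases) is shown because NOMO2 and NOMO3 share its sequence while NOMO1 does not. Capitals mark the base that differs, C96T from NOMO1 to both other copies, counted from 1 at the 5′ end of the exon. The rows lie at chr16:14980618-14980719 (NOMO1), chr16:18520487-18520588 (NOMO2) and chr16:16379262-16379363 (NOMO3).
NOMO1 exon 28: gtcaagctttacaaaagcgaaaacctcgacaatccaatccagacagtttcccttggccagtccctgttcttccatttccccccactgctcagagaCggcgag
NOMO2 exon 28: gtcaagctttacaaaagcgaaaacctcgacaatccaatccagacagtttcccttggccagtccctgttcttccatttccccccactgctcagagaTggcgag
NOMO3 exon 28: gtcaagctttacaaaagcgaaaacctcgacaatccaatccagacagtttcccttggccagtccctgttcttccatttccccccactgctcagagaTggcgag

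Exon 13 (142 bases) is shown as 1 of the 4 exons in which all copies differ from each other. Capitals mark A73G and A82G, which set NOMO2 and NOMO3 apart from NOMO1, and C81T, which sets NOMO3 apart from NOMO1 and NOMO2. The rows lie at chr16:14958442-14958583 (NOMO1), chr16:18542788-18542929 (NOMO2) and chr16:16356931-16357072 (NOMO3).
NOMO1 exon 13: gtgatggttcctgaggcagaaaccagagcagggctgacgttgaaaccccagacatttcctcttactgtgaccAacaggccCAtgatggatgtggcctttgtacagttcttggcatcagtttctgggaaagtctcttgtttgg
NOMO2 exon 13: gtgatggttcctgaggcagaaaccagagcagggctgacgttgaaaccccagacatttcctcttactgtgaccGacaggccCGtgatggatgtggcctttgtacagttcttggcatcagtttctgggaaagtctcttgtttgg
NOMO3 exon 13: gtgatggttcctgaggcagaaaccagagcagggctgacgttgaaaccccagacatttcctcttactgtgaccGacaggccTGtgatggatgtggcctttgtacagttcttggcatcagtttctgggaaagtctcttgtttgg

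In all, 18 of the 31 exons have the same sequence in all copies, 7 set only NOMO1 apart, 2 set only NOMO2 apart and 4 differ between all copies. For exon 1 this holds for the 231 bases next to intron 1, and the rows of exon 1 are 231, 237 and 300 bases long in NOMO1, NOMO2 and NOMO3.

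Summed over all exons and copies, the NOMO level was slightly higher in the BS008 library than in the control library. The copies together had 60600 reads in control and 62817 in BS008. On the log2 scale BS008 stood above control by 0.10 (95% exact interval 0.09 to 0.12, for the counting of reads only), which is a 1.07-fold higher level. Exon 31 alone had 12798 reads in control and 16255 in BS008, a larger gain in reads than that of the whole sum. Log2 ratios are those of BS008 to control, taken on CPM (counts scaled to the library total) with 0.5 added. The reads were placed differently on the copies, however. NOMO1 had 24944 reads in control and 24185 in BS008, with RPKM levels of 105.9 and 106.3 and a log2 ratio of 0.0056 (-0.020 to 0.031). NOMO2 had 18453 and 26958 reads, with RPKM levels of 78.2 and 118.3 and a log2 ratio of 0.60 (0.57 to 0.62). NOMO3 had 17203 and 11674 reads, with RPKM levels of 71.9 and 50.5 and a log2 ratio of -0.51 (-0.54 to -0.48). With all exons counted, NOMO1 was the highest copy in control and NOMO2 in BS008, and NOMO3 was the lowest in both. The order of NOMO1 and NOMO2 in BS008 turned without exons 1 and 31, where NOMO1 held 44.0% of the BS008 reads and NOMO2 43.6%, and over exons 6 to 24, where they held 51.4% and 36.8%. Of all NOMO reads, NOMO2 held 30.5% (95% Wilson interval 30.1 to 30.8%) in control and 42.9% (42.5 to 43.3%) in BS008. NOMO3 held 28.4% (28.03 to 28.75%) and 18.6% (18.3 to 18.9%), and NOMO1 held 41.2% (40.8 to 41.6%) and 38.5% (38.1 to 38.9%). With the 19 positions from exon 6 to exon 24 alone, a stretch chosen after the values were seen, the log2 ratio of NOMO2 was 0.08 and that of NOMO3 was -0.21. The share of NOMO2 was higher in BS008 at 11 positions and lower at 20, so its larger total rested on few exons with large differences.

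**Figure D1:**
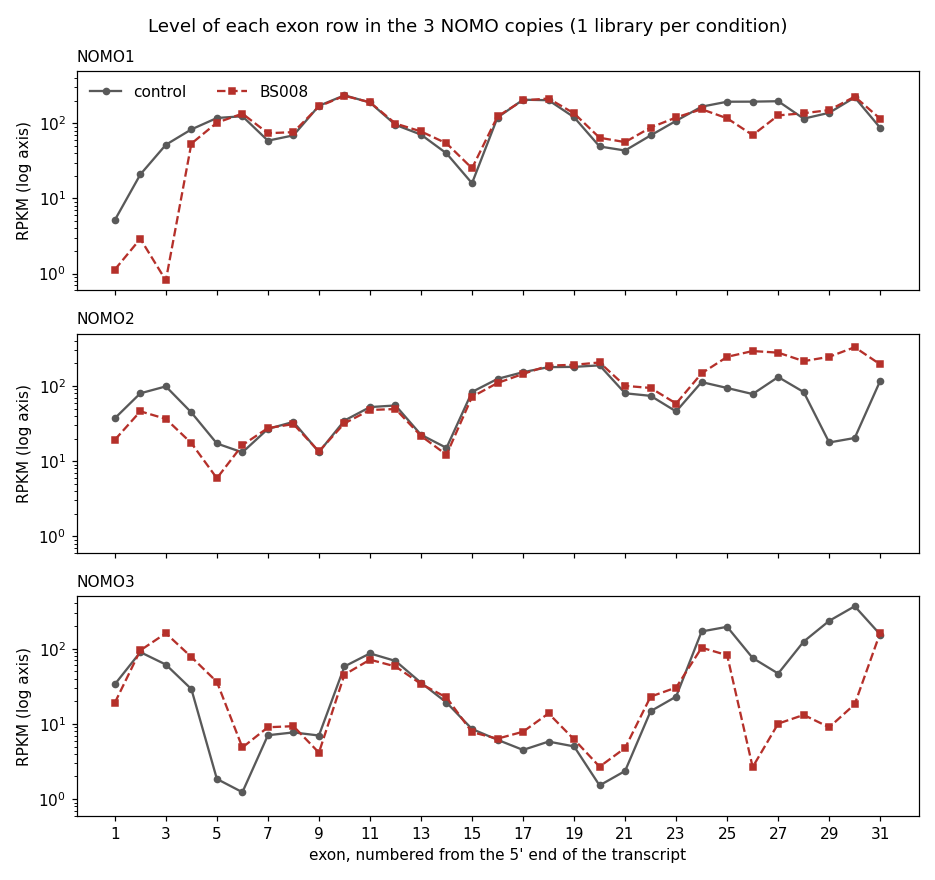
RPKM (log axis) of the 31 exon rows of NOMO1, NOMO2 and NOMO3 in the control library (circles, solid line) and the BS008 library (squares, dashed line), by exon number. NOMO2 and NOMO3 part in opposite directions at exons 3 to 5 and 25 to 30, NOMO1 parts most at exons 1 to 3, and its exon 30 levels are 221 and 226.

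Row by row, all 93 rows had at least 10 reads in 1 of the libraries. Of these, 9 (9.68%) were at least 2-fold higher in BS008 and 13 (14.0%) at least 2-fold lower, and 71 were within 2-fold. Over all 131330 rows with that many reads the shares were 3.73% higher and 3.79% lower, and since the genes were chosen on this contrast nothing is read from the difference. The median log2 ratio of the NOMO rows was 0.05, against -0.04 over all those rows. The rows past 2-fold were not scattered. NOMO2 was higher at exons 25 to 30 and lower at exons 3 to 5, and NOMO3 was lower at exons 25 to 30 and higher at exons 3 to 5. NOMO1 was lower at exons 1, 2, 3 and 26. On the low side the rows nearest to 2-fold were NOMO2 exon 5, just past it at -1.04 on the log2 scale, and NOMO2 exon 1, just within it at -0.88. On the high side they were NOMO2 exon 27 at 1.05 and NOMO3 exon 18 at 0.79.

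The exons of the copies were then summed at each position. No summed position was 2-fold higher or lower. The summed log2 ratio ran from -0.90 at exon 1 to 0.39 at exon 31, with a median of 0.06, and was above 0 at 17 positions and below 0 at 14. At exon 1, which holds the start of the transcript, the copies together had 1115 reads in control and 565 in BS008. Each copy was lower there, with 66 and 14 reads in NOMO1, 489 and 244 in NOMO2, and 560 and 307 in NOMO3. At exon 31, which holds the end of the coding sequence and the 3′ untranslated region, the copies together had 12798 and 16255 reads. The higher sum of exon 31 was not shared by exons 28 to 30 before it, which had 7564 and 7428 reads and a log2 ratio of 0.024 (-0.022 to 0.070). Exons 21 and 22, however, were nearly as high as exon 31, at 0.35 and 0.37. Next to exon 1, exon 2 was lower as well, at -0.39.

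**Figure D2:**
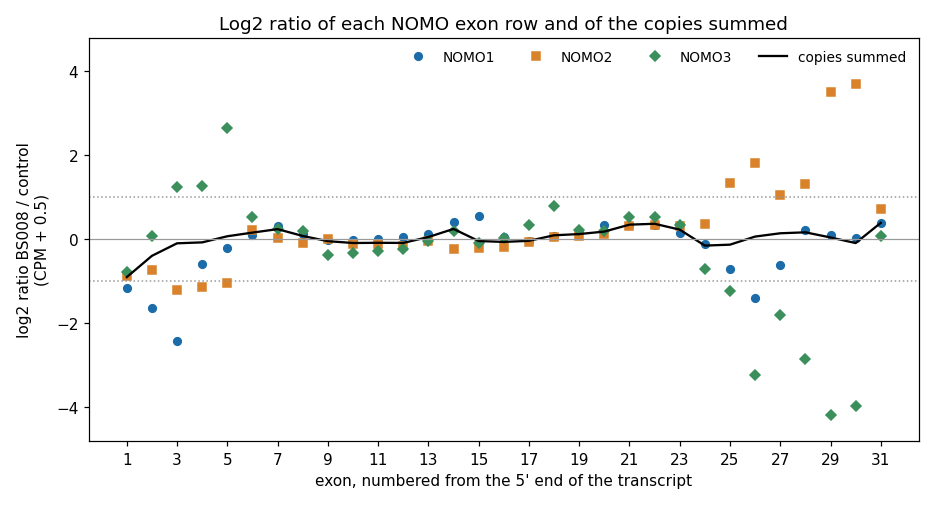
Log2 ratio of BS008 to control (CPM with 0.5 added) of each row of NOMO1 (circles), NOMO2 (squares) and NOMO3 (diamonds) by exon number, with the copies summed as a line and 2-fold marked by dotted lines. The copies spread from -4.18 to 3.70 while the line stays between -0.90 and 0.39.

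With 0.5 CPM added, the 6 rows with the largest absolute log2 ratios were in exons 26 to 30. Without it, NOMO1 exon 3, with 2 reads in BS008, came first. NOMO3 exon 29 had 1564 reads in control and 58 in BS008, a log2 ratio of -4.18, and NOMO2 exon 29 had 118 and 1572 reads, a log2 ratio of 3.51. NOMO1 exon 29 had 917 and 961 reads. Nearly all reads that the NOMO3 row lacked in BS008 were thus matched in number by the NOMO2 row, and the 3 rows together had 2599 and 2591 reads. At exon 30, which was the row that led to the choice of these genes, NOMO3 had 1896 and 91 reads (log2 ratio -3.98). NOMO2 exon 30 had 105 and 1635 reads (log2 ratio 3.70) and NOMO1 exon 30 had 1138 and 1126. Again the NOMO1 row kept its number of reads, and the summed log2 ratio of the exon was -0.09. At exon 28, NOMO3 had 705 and 72 reads (log2 ratio -2.84), NOMO2 had 470 and 1170, and NOMO1 had 651 and 743. Exons 28 to 30 had a sum of 7564 reads in control and 7428 in BS008. Of these, NOMO3 held 55.1% (53.9 to 56.2%) in control and 2.98% (2.61 to 3.39%) in BS008, and NOMO2 held 9.16% (8.53 to 9.83%) and 58.9% (57.8 to 60.0%). The share of NOMO1, which differs in sequence at exon 28 but not at exons 29 and 30, was 35.8% (34.7 to 36.9%) and 38.1% (37.0 to 39.2%).

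In exons 25 to 27 the NOMO2 share was also higher in BS008, but here both other copies were lower. At exon 26, NOMO2 had 364 reads in control and 1313 in BS008, while NOMO1 had 903 and 313 and NOMO3 had 351 and 12 (log2 ratio -3.24). At exon 25, NOMO2 had 741 and 1858 reads, NOMO1 had 1523 and 885, and NOMO3 had 1542 and 624. Over exons 25 to 27 NOMO2 held 24.8% (23.8 to 25.7%) of the reads in control and 64.5% (63.4 to 65.6%) in BS008. NOMO1 held 47.0% (45.9 to 48.1%) and 26.2% (25.2 to 27.2%). At exon 27 NOMO1 differs from both other copies by 1 base (A105G), and there too its share was lower in BS008, at 52.4% (50.4 to 54.4%) in control and 30.6% (28.9 to 32.5%) in BS008. The summed log2 ratio of this stretch was 0.0011 (-0.045 to 0.047), an interval that includes 0.

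At exon 31 the copies were closer. NOMO3 had 5516 reads in control and 5624 in BS008, NOMO2 had 4187 and 6678, and NOMO1 had 3095 and 3953. NOMO1 differs from both other copies at 5 bases in this exon, and its share was 24.2% (23.4 to 24.9%) and 24.3% (23.67 to 24.98%). NOMO2 and NOMO3 have the same sequence there, and the NOMO3 share was 43.1% (42.2 to 44.0%) in control and 34.6% (33.9 to 35.3%) in BS008.

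Exons 2 to 5 showed the opposite order of NOMO2 and NOMO3, while at exon 1 both were lower in BS008. NOMO3 exon 5 had 11 reads in control and 208 in BS008, a log2 ratio of 2.65, while NOMO2 exon 5 had 102 and 34 and NOMO1 exon 5 had 697 and 583. At exon 3, a short exon of 46 bases, NOMO1 had 132 and 2 reads. Its log2 ratio was -2.42, but with only 2 reads in BS008 its size depended on the 0.5 added, and without it the ratio was -5.99 (-9.05 to -4.11). NOMO2 exon 3 had 252 and 90 reads. NOMO3 exon 3 had 157 and 396 reads, which is 29.02% and 81.15% of the reads on this exon. Over exons 2 to 5, NOMO3 held 24.6% (23.1 to 26.1%) of the reads in control and 52.7% (50.9 to 54.6%) in BS008. NOMO1 held 43.9% (42.2 to 45.7%) and 31.6% (29.9 to 33.4%), and NOMO2 held 31.5% (29.9 to 33.1%) and 15.6% (14.4 to 17.0%). The sum of these exons was 3180 and 2812 reads, a log2 ratio of -0.13 (-0.20 to -0.05). All 4 of these exons have the same sequence in all copies.

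**Figure D3:**
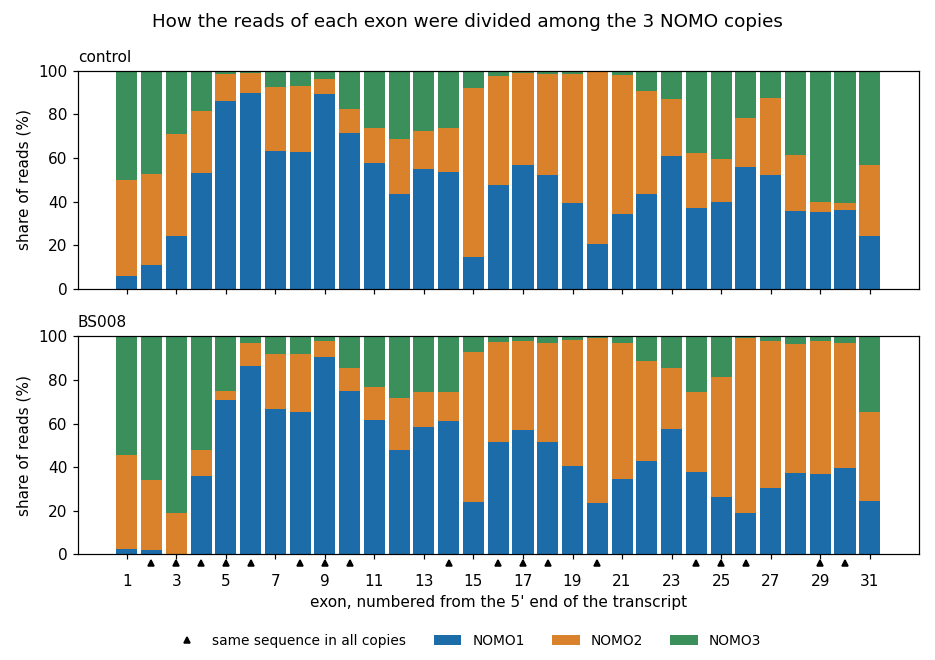
Percent of the reads on each exon that were counted on NOMO1, NOMO2 and NOMO3, in the control library (top) and the BS008 library (bottom), with triangles under the 18 exons that have the same sequence in all copies. NOMO3 fills 60.4% of exon 30 in control and 3.19% in BS008, while at exons 6 to 23 no share differs by more than 9.28 percentage points.

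In the middle of the gene the division of reads was closer in the libraries than at its ends. Over exons 6 to 24 NOMO1 held 49.8% (49.2 to 50.4%) in control and 51.4% (50.8 to 52.0%) in BS008, NOMO2 held 36.0% (35.5 to 36.6%) and 36.8% (36.2 to 37.3%), and NOMO3 held 14.2% (13.8 to 14.6%) and 11.8% (11.4 to 12.2%). Much of the lower NOMO3 share came from exon 24, where NOMO3 had 1205 reads in control and 708 in BS008. Over exons 7 to 23 NOMO3 had 2790 and 2616 reads, which are 11.4% (11.01 to 11.81%) and 10.5% (10.1 to 10.9%). The same copy held the most reads in both libraries at 20 of the 31 positions, and at the other 11 the leading copy differed. Within a library, the exons of 1 copy differed widely as well. In control the RPKM level of NOMO3 rows ran from 1.23 to 367 and that of NOMO1 rows from 5.15 to 235. In BS008 the NOMO3 rows ran from 2.67 to 163 and the NOMO1 rows from 0.811 to 232. Wide ranges were thus present in the control library alone.

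The differences in share were set beside the sequences, a comparison that was chosen after the values were seen. In the 4 exons that differ between all copies (11, 12, 13 and 19), no copy's share differed by more than 4.49 percentage points between the libraries. At exon 13, NOMO1 had 556 reads in control and 592 in BS008, NOMO2 had 177 and 165, and NOMO3 had 278 and 259. Summed over these 4 exons, NOMO2 held 34.8% (33.8 to 35.7%) in control and 34.8% (33.9 to 35.8%) in BS008, and NOMO3 held 18.1% (17.3 to 18.9%) and 15.5% (14.8 to 16.3%). In the 18 exons with 1 sequence the largest difference ran from 1.22 to 57.9 points, with a median of 9.77. In the 7 exons that set NOMO1 apart it ran from 1.39 to 35.0 points, with a median of 8.502, and exon 27 was among them. The 18 exons with 1 sequence fell into stretches, from 18.8 to 52.1 points in the 4 exons from 2 to 5, from 1.22 to 7.24 in the 9 such exons from 6 to 20, and from 12.3 to 57.9 in the 5 such exons from 24 to 30. An identical sequence was not always accompanied by a large difference, nor a copy's own base, as at NOMO1 exon 27, by a small one. That base is number 105 of the 111 in exon 27. At exon 28 the base that sets NOMO1 apart is number 96 of 102, and there its share was 35.7% in control and 37.4% in BS008. All 22 rows past 2-fold have the sequence of at least 1 other copy at that exon, as do 72 of the 93 rows. The other 21 rows, which differ from both other copies, had log2 ratios from -0.88 to 0.56. Most of these 21 rows lie in exons 7 to 23. With 0.5 CPM added no row of any copy passed 2-fold there, and without it NOMO3 exons 18 and 21 did, at 1.25 and 1.02. Sequence and position in the gene can therefore not be told apart here. The length of the reads and the treatment of reads that fit several copies are not given in the sources used here, and their part in the shares was not tested.

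**Figure D4:**
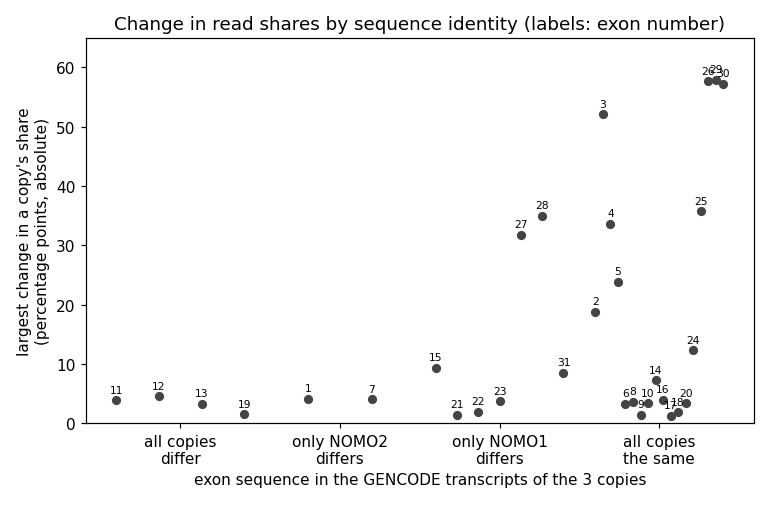
Largest absolute difference of a copy's share between the libraries (percentage points) for each of the 31 exons, grouped by which copies differ in sequence, with the exon number beside each point. Exons in which all copies differ stay at or below 4.49 points, and exons with 1 sequence reach 57.9. The former all lie in the middle of the gene, where exons with 1 sequence from 6 to 20 stay at or below 7.24.

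The other genes of the translocon were read for comparison, from the 16 listed, of which 10 could be identified in the exon rows. None was at least 2-fold higher or lower in BS008. These values are sums over the internal exons of 1 matched transcript, so the 3.73% and 3.79% given above for single rows are no background for them. Such a transcript need not cover the gene, and for SEC61A1 and SSR3 it had 3 internal exons. Their log2 ratios ran from -0.81 to 0.87 with a median of 0.08, above 0 for 6 genes and below 0 for 4. Nicalin (NCLN), the direct partner of NOMO, had 3588 reads in control and 2387 in BS008 on 13 internal exons, with RPKM levels of 44.7 and 30.8. Its log2 ratio was -0.53 (-0.61 to -0.46). That of NOMO summed was 0.10, but the NOMO sum also holds the first and last exons, at -0.90 and 0.39. Over exons 6 to 24 of NOMO, all internal and chosen after the values were seen, the summed log2 ratio was 0.054. CCDC47, SSR3 and SSR4 are given because their values were farthest from 0 or near that of NCLN, a choice made after seeing them. CCDC47, a chaperone subunit of the PAT complex, had the lowest log2 ratio, -0.81 (-0.88 to -0.76). SSR3 and SSR4, subunits of the TRAP complex that helps proteins enter the channel, were at 0.87 (0.81 to 0.93) and 0.52 (0.46 to 0.59). TMCO1, SEC61A1, SEC61A2, SEC62, SEC63 and SSR1 lay between -0.08 and 0.17. TMEM147, WDR83OS, RAB5IF, SEC61B, SEC61G and SSR2 could not be identified.

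**Figure D5:**
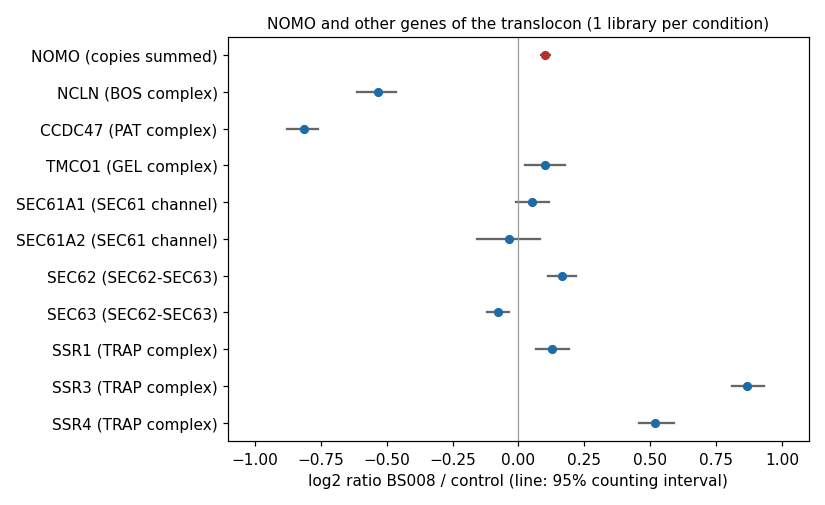
Log2 ratio of BS008 to control for NOMO with its copies summed and for the 10 translocon genes identified by the lengths of their internal exons and introns, with lines for the 95% interval of counting. NOMO lies at 0.10, between NCLN at -0.53 and SSR3 at 0.87. The NOMO sum includes its first and last exons, which are left out for the other genes.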

How the data were processed

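The authors deposited, for each of the 2 libraries, raw read counts and RPKM values on 239322 exon rows, which carry no gene names. Deposited RPKM values were recomputed from the counts and the library totals to within 4.72e-06. The submitters' processing notes name hg19, and the aligner, counter and annotation are not given in the sources used here. The control library was grouped by its own treatment label, although its protocol field names BS008. The members and gene lists were chosen with earlier results of these data known. Log2 ratios used CPM with a pseudocount of 0.5, rows needed at least 10 counts in either library, and no test was made with 1 library per group. Intervals (95%, Wilson for shares, Clopper-Pearson for ratios) cover counting error only. By rule, the text names up to 8 rows with the largest absolute log2 ratio past 2-fold, the 5 positions with the largest change in share, the first and the last position, the other copies there, and NCLN. Exon 13, the stretches of exons and the sequence classes were added after values were seen. Translocon and marker genes were identified where the internal exon and intron lengths of a GENCODE transcript (at least 3 exons) occurred in 1 place on its chromosome and strand, without use of its coordinates. The longest such run was used, and the values of these genes are sums over its exons only. Exon sequences were cut from GENCODE transcripts, and the bases of hg19 or of Huh-7 cells were not compared. The code for the calls was run on simulated counts with counting error only. These had no spread between cultures and no reads shared between copies, so they say nothing about the calls made here. Python 3.11.15, numpy 2.4.6, pandas 2.3.3, scipy 1.17.1, matplotlib 3.10.9, R 4.3.3 and edgeR 4.0.16 (TMM only, on the deposited counts) were used. Alternatives were other library sizes, pseudocounts, count minimums, thresholds and sets of rows.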

Additional observations from a re-analysis of the deposited data

How the results depend on the processing

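The log2 ratio of NOMO summed was 0.15 with TMM, 0.12 without mitochondrial reads, 0.035 with the mean RPKM per row and 0.054 over exons 6 to 24. With TMM, NOMO1, NOMO2 and NOMO3 were at 0.055, 0.65 and -0.46. With the mean RPKM per row NOMO1 was at -0.078 and NOMO3 at -0.76. Over exons 6 to 24 they were at 0.10, 0.082 and -0.21, and over the exons that differ between all copies at 0.089, 0.019 and -0.20, both sets chosen after seeing the data. The sign of NOMO1 thus depended on the setting, and the size of the NOMO2 and NOMO3 ratios on the exons used.

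The shares of NOMO1 (control, BS008) were 41.8% (control) over positions of equal length, 45.6% and 42.2% with mean RPKM, 46.7% and 44.0% without exons 1 and 31, 47.2% and 49.6% over exons that differ between all copies, and 49.8% and 51.4% over exons 6 to 24. Those of NOMO2 were 29.5% and 43.4%, 29.5% and 43.6%, 34.8% and 34.8%, and 36.0% and 36.8% under the last 4 of these settings. Those of NOMO3 were 27.98% and 18.3% over positions of equal length, and then 24.9% and 14.4%, 23.8% and 12.5%, 18.1% and 15.5%, and 14.2% and 11.8%. The NOMO2 share thus differed little between the libraries over the last 2 sets of exons, which leave out exons 25 to 30. The cause of the other shifts was not tested.

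The counts of rows past the threshold (9 higher, 13 lower) ran from 9 to 11 and from 10 to 19 over the alternatives. The 11 named rows kept their direction and stayed at least 2-fold apart in 44 of 44 alternatives. They had been picked for their large differences in these data, so this says nothing of rows nearer to 2-fold. Rows with few reads moved with the pseudocount (0.1 and 1 CPM), NOMO3 exon 5 to 3.74 and 2.03, and NOMO3 exon 26 to -4.31 and -2.58. NOMO3 exon 29 moved to -4.58 and -3.81, and NOMO1 exon 3 to -4.17 and -1.70. No summed position passed 2-fold in any of 36. No row overlapped another. No paired analysis was possible because each condition has 1 library, and for the same reason no replicate could be left out. Depth limits rows with few reads, such as the 2 reads of NOMO1 exon 3, and the spread between cultures is unknown at any depth.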
